A study of Homo sapiens with 27 samples.

Results

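The genes of cilium transport and of the BBSome were followed in H1 human embryonic stem cells differentiated toward photoreceptor progenitors on laminin. The 34 genes were taken by symbol from the 44852 genes of the count table, and all 34 were matched to an Ensembl gene. They hold 11 subunits of intraflagellar transport complex B (IFT-B), 2 subunits of complex A (IFT-A), 7 BBSome subunits, the GTPase ARL6, 3 chaperonin-like BBS genes, 7 genes of the transition zone and of inherited retinal and kidney disease, 2 motor genes, and the tubby-like adaptor TULP3.

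H1 is an established line of human embryonic stem cells. The cells were at passage 10 to 25 and were grown on 3 matrices, called LN323, LN521 and LN523 after the laminin isoform, with 3 libraries for each matrix at days 2, 22 and 32, 27 in all. The sample titles give these days as 0, 20 and 30, whereas the columns of the deposited counts and TPM give 2, 22 and 32, which are used here. Day 2 cells were undifferentiated and kept in stem cell medium. They then received a neural induction medium with CKI-7 and SB431542, followed by a photoreceptor differentiation medium with BDNF, CNTF, retinoic acid and DAPT, in which the cells of days 22 and 32 were cultured. Time and medium therefore cannot be told apart. None of the 27 libraries was from cells kept undifferentiated to day 22 or 32. The sources differ on the coatings: in the study's methods LN523 and LN323 were each mixed with LN521, whereas the sample labels pair the isoforms with LN323, so the matrices are named here as the labels' first isoform only.

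A primary cilium is an antenna of microtubules that grows from a basal body. IFT-B particles, pulled by kinesin, carry cargo toward the tip, and IFT-A particles bring it back with dynein. The BBSome is a coat of BBS proteins that rides on these trains and moves membrane receptors out of the cilium, and the transition zone is the gate at its base. In photoreceptors the light-sensing outer segment is itself a modified cilium, and defects of these genes cause retinal degeneration.

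Total counts ranged from 25620624 to 47340990 per library. The summed level of 7 markers of pluripotent cells was 9400.4 to 11035.3 TPM (a level scaled to the length of the gene and the size of the library) at day 2, 78 to 620.3 TPM at day 22 and 35.8 to 117.3 TPM at day 32. The highest value at day 22 and that at day 32 both belonged to LN521 replicate 1. Retinal progenitor markers went from 2.21–5.62 TPM at day 2 to 767.1–1903.1 TPM at day 22, and all 6 of them rose. The 11 photoreceptor markers summed to 70–196.6 TPM at day 2, 54.8–152.6 TPM at day 22 and 117.1–348.6 TPM at day 32. Most of the day 2 sum was OTX2, with medians of 101.4 TPM at day 2 and 31.3 TPM at day 22. From day 2 to day 22, 8 of the 11 rose and 2 fell, with a median log2 fold change of 3.24. At day 32 the medians of THRB and OTX2 were 39.8 and 35.2 TPM, whereas CRX had 6.61 TPM and the phototransduction gene RCVRN 0.321 TPM. Markers of cycling cells summed to 1858.0–2266.7 TPM at day 2, 719.2–1551.6 TPM at day 22 and 549.6–1684.2 TPM at day 32. Mesenchyme markers went from 43.2–156.4 TPM at day 2 to 323.3–2318.0 TPM at day 22 and 449.8–6713.0 TPM at day 32. Those of pigment epithelium went from 102.3–211.4 to 696.5–2242.2 and 447.3–1859.8 TPM at the 3 days, and those of keratinocytes from 7.1–14.4 to 76.5–139.3 and 106.5–929.4 TPM. Neuron markers summed to 414.9 TPM in LN521 replicate 1 at day 22 and to 20.3–50.5 TPM in the other day 22 libraries. These markers also changed with time, not all in the direction or over the same days as the cilium genes. The part of these markers in the results below was not tested. In bulk RNA, fewer cells of a type and less RNA per cell cannot be told apart. The labels do not say whether the 3 libraries of a group came from separate cultures, so p-values measure the spread between these libraries, which may be technical.

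The first question was how the cilium genes changed from the stem cells of day 2 to the day 22 cultures, which held markers of several cell types. Between day 2 and day 22, taken as the mean over the 3 matrices, 24 of the 34 genes rose, 3 fell and 7 did not pass the test (edgeR quasi-likelihood test, Benjamini-Hochberg adjusted p under 0.05 over all genes). Over all 44852 genes tested, 18.2% rose and 16.9% fell. Many of these genes were barely expressed. In a fit limited to the 25682 genes kept by an expression filter (filterByExpr), 8271 rose and 7514 fell. The median log2 fold change of the 34 genes was 0.62, whereas that of all genes tested was 0.00. The summed TPM of the 34 genes was 547.8 ± 31.8 (SD, n = 3) on LN323 at day 2 and 1076.7 ± 52 at day 22, with 568.1 ± 44.2 and 1106.4 ± 91.6 on LN523, and 628.9 ± 26.1 and 1104.0 ± 43.5 on LN521. In 19 of the 34 genes every day 22 library lay above every day 2 library in TPM, against 10.4% of all genes. In 1 gene, MKKS, every day 22 library lay below every day 2 library, against 5.99% of all genes. Both shares include the barely expressed genes and were not computed for the genes kept by the expression filter. Without LN521 replicate 1 at days 22 and 32, 26 of the 34 genes rose and 2 fell, and the counts were the same without the 3 libraries that stood apart on the second principal component (LN323 and LN523 replicate 2 at day 22 and LN521 replicate 1 at day 32). Of all genes, 8781 of 44416 rose and 6790 fell in the first of these fits, and 8688 of 44263 rose and 6817 fell in the second.

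**Figure D1:**
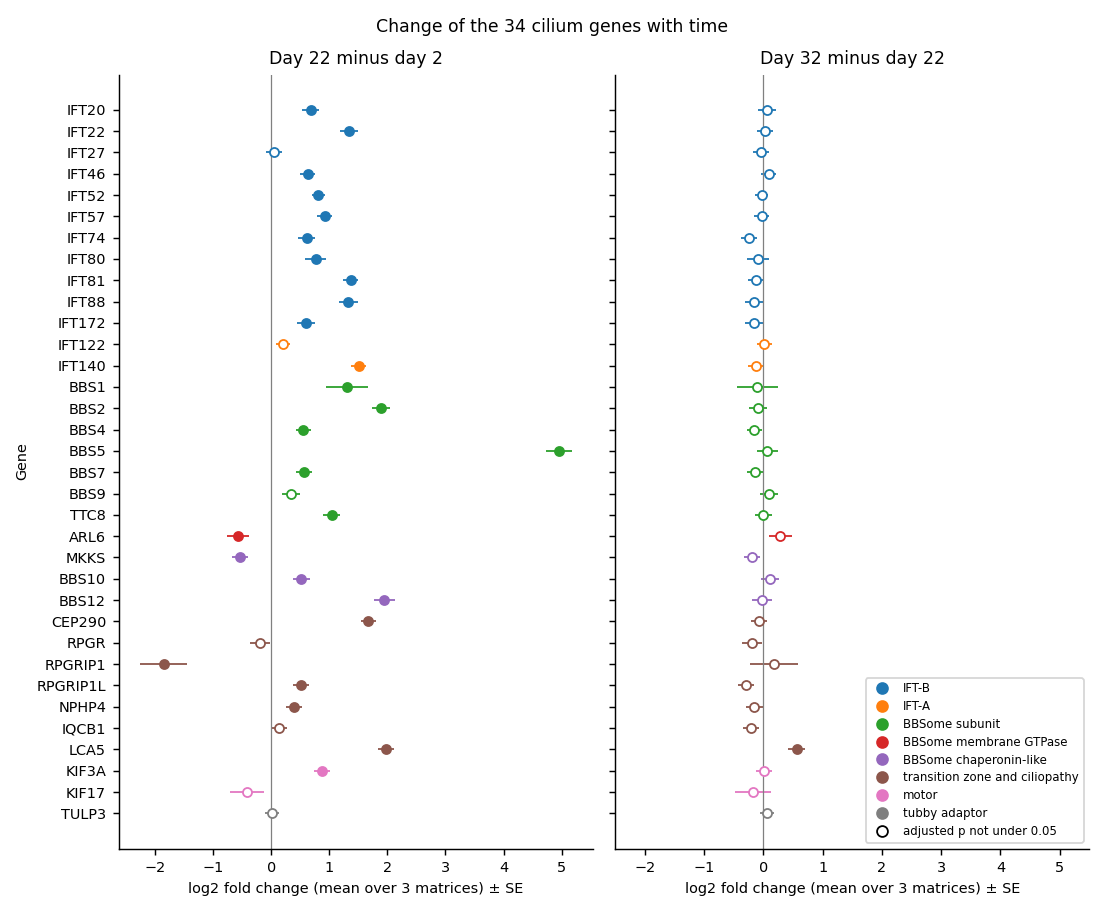
Log2 fold change of each of the 34 genes from day 2 to day 22 (left) and from day 22 to day 32 (right), as the mean over 3 matrices with its standard error. Filled points had an adjusted p under 0.05 (24 higher and 3 lower on the left, 1 higher on the right), and colours give the role of the gene.

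Of the 11 IFT-B genes, 10 rose and IFT27 did not pass the test. IFT81, which with IFT74 carries tubulin into the cilium, had the largest change of the complex. Its lowest, median and highest levels were 10.2, 11.3 and 17.6 TPM at day 2, and 32.2, 36.6 and 41.1 TPM at day 22, so the 2 days did not overlap. The log2 fold change was 1.37 ± 0.13 (SE; adjusted p = 7.72e-13). IFT22, a GTPase-like subunit, rose by 1.34, and IFT88, whose loss prevents assembly of the cilium, rose by 1.33 on the log2 scale. The exons of IFT22 overlap a gene on the opposite strand over 59.0% of their length, and whether the counting used strand is not given in the sources used here. The other IFT-B genes that rose did so by less than 1 on the log2 scale: IFT57 by 0.92, IFT52 by 0.81, IFT80 by 0.77, IFT20 by 0.68, IFT46 by 0.63, IFT74 by 0.61 and IFT172 by 0.60. IFT20 is the subunit also found at the Golgi, where membrane cargo is sorted for the cilium. IFT27, a small GTPase that links the train to BBSome export, had a log2 fold change of 0.05 ± 0.13 with an approximate 95% interval of -0.21 to 0.30.

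Of the 2 IFT-A genes, IFT140 rose and IFT122 did not pass the test. IFT140, a core subunit of the complex, had 10.1, 18.6 and 27.5 TPM as the lowest, median and highest of the 9 day 2 libraries, and 43.8, 61.7 and 64.6 TPM at day 22. Every day 22 library was above every day 2 library, and the log2 fold change was 1.51 ± 0.13 (SE; adjusted p = 1.07e-14). IFT122, another core subunit, had a log2 fold change of 0.20 ± 0.12 with an adjusted p of 0.221, and it was called higher without LN521 replicate 1 at days 22 and 32 (0.30, adjusted p = 0.0452 by edgeR) and in limma (0.41 and 0.43 with pseudocounts of 1 and 0.1). The difference between these genes was not tested.

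BBSome subunits held the largest change of all 34 genes. BBS5, a subunit that binds phosphoinositides of the membrane, was nearly silent in stem cells. On LN323 the 3 day 2 libraries had 0.436, 0.379 and 0.45 TPM, on LN521 0.665, 0.208 and 0.333 TPM, and on LN523 0.246, 0.284 and 0.294 TPM. At day 22 the values were 12, 14.6 and 14.5 TPM on LN323, 12.9, 12.1 and 12.9 TPM on LN521, and 12.1, 11.2 and 13.4 TPM on LN523. The lowest day 22 library was thus far above the highest day 2 library on each matrix, and replicates of day 22 differed little. The fitted log2 fold change was 4.95 ± 0.22 (SE; adjusted p = 8.71e-26), which is 30.9-fold. Over the alternatives it was 3.34 to 5.12, the lowest with limma on log2(TPM + 1). Behind the day 2 values stood 10 to 26 counts per library, so the size of the fold rests on low counts. Of the exons of BBS5, 23.5% lie in another gene on the same strand.

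BBS2, a subunit of the BBSome core, had 6.32, 10.9 and 19.9 TPM as the lowest, median and highest at day 2 and 36.1, 49.3 and 54.8 TPM at day 22. The days did not overlap, and the log2 fold change was 1.89 ± 0.16 (SE; adjusted p = 3.75e-15). TTC8, also called BBS8, rose by 1.04 on the log2 scale, BBS7 by 0.57 and BBS4 by 0.55. BBS1, the subunit through which the BBSome meets ARL6, rose by 1.30 ± 0.36 but reached at most 1.46 TPM, and 54.0% of its exonic length lies in other genes on the same strand. Without replicate 3 of every group its log2 fold change was 0.80 and the call was lost, and the call of BBS7 was lost without replicate 1 (0.42). BBS9 had a log2 fold change of 0.34 ± 0.15 with an adjusted p of 0.0737, and it was called higher under 5 alternatives, with values of 0.43 to 0.57: both limma fits, and the removal of replicate 2 of every group, of LN521 replicate 1 at days 22 and 32, and of the 3 libraries apart on the second component.

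The genes that recruit and assemble the BBSome went in both directions. ARL6, also called BBS3, is the GTPase that brings the BBSome to membranes. It was at 9.36, 14 and 19.3 TPM (lowest, median and highest) at day 2 and 7.44, 11.4 and 15.2 TPM at day 22. The days overlapped, and ARL6 fell by 0.57 ± 0.19 on the log2 scale (adjusted p = 0.0157). This call was lost under 6 of the 11 alternatives, among them the removal of LN521 replicate 1 at days 22 and 32 (-0.47), of the 3 libraries apart on the second component (-0.46), of replicate 1 of every group (-0.55) and of replicate 2 of every group (-0.40). MKKS, a chaperonin-like gene of BBSome assembly, fell by 0.54 ± 0.14 (adjusted p = 0.000973). BBS10, of the same family, rose by 0.52, a call lost without replicate 1 of every group (0.38). BBS12, another gene of this family, had 4.72, 6.18 and 7.52 TPM at day 2 and 17.4, 31.4 and 40.8 TPM at day 22. The lowest day 22 library exceeded every day 2 library, and BBS12 rose by 1.95 ± 0.18 (adjusted p = 2.54e-13).

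**Figure D2:**
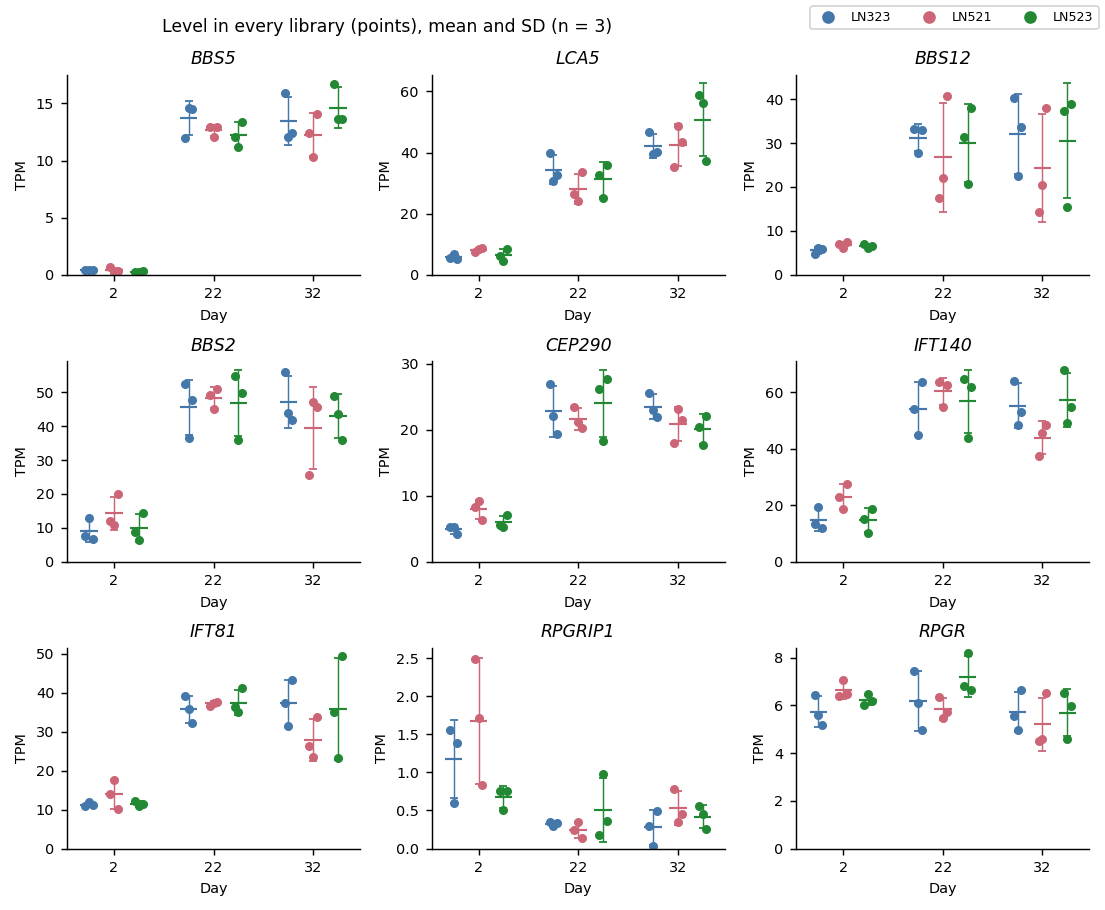
TPM of 9 genes in every library at days 2, 22 and 32 by matrix (points), with the mean and SD of the 3 libraries of a group. BBS5 lay between 0.208 and 0.665 TPM at day 2 and between 11.2 and 14.6 TPM at day 22, RPGRIP1 stayed at or below 2.49 TPM, and RPGR lay between 4.51 and 8.19 TPM throughout.

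Among the transition zone and ciliopathy genes, 4 rose, RPGRIP1 fell, and RPGR and IQCB1 did not pass the test. CEP290, the tether between microtubules and membrane in the transition zone and a common cause of Leber congenital amaurosis, had 4.12, 5.55 and 9.14 TPM as the lowest, median and highest at day 2 and 18.2, 22.1 and 27.6 TPM at day 22. The log2 fold change was 1.67 ± 0.13 (SE; adjusted p = 5.07e-16) and the days did not overlap. LCA5, which encodes lebercilin, had 4.44, 6.96 and 8.77 TPM at day 2 and 24.1, 32.6 and 39.9 TPM at day 22. It rose by 1.98 ± 0.14 (adjusted p = 3.04e-17), again without overlap. RPGRIP1L rose by 0.52 and NPHP4 by 0.39 on the log2 scale, and the call of NPHP4 was lost without replicate 3 of every group (0.24) and under RLE normalization (0.35).

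RPGRIP1 and RPGR form a complex at the connecting cilium of photoreceptors. RPGRIP1 had 1.56, 0.599 and 1.38 TPM on LN323 at day 2, 2.49, 1.71 and 0.833 TPM on LN521, and 0.755, 0.51 and 0.758 TPM on LN523. At day 22 it had 0.345, 0.291 and 0.332 TPM on LN323, 0.246, 0.345 and 0.144 TPM on LN521, and 0.178, 0.984 and 0.356 TPM on LN523. The levels were low throughout, and 1 day 22 library, LN523 replicate 2, lay within the day 2 range. RPGRIP1 fell by 1.85 ± 0.40 on the log2 scale (adjusted p = 0.000152). The value was -0.65 with limma on log2(TPM + 1) and -2.40 without replicate 2 of every group, and the call held in both. The day 22 libraries held 7 to 53 counts of it. RPGR, a regulator of traffic into the outer segment, had 5.16, 6.38 and 7.07 TPM (lowest, median and highest) at day 2 and 4.96, 6.37 and 8.19 TPM at day 22. Its log2 fold change was -0.19 ± 0.17 with an adjusted p of 0.51 and an approximate 95% interval of -0.52 to 0.15. Of IQCB1, which binds CEP290 and RPGR, the log2 fold change was 0.14 ± 0.13, and it was called higher in limma (0.36) and without the 3 libraries apart on the second component (0.37).

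Of the motors, KIF3A, a motor subunit of the kinesin that drives IFT trains outward, rose by 0.88 ± 0.14 on the log2 scale (adjusted p = 3.95e-07). KIF17, a motor of the same direction, differed by up to 13.3-fold between replicates of a group, which among the 34 genes only RPGRIP1 exceeded, at 13.6-fold. On LN323 at day 22 it had 23.7, 4.53 and 26.8 TPM beside cycling marker sums of 732.5, 1551.6 and 1014.5 TPM. On LN523 at day 22 it had 37.6, 2.82 and 31.2 TPM beside cycling sums of 719.2, 1465.8 and 1143.9 TPM. The low library of each group, replicate 2, is among those apart on the second component, and mesenchyme sums were 774.5, 1613.0 and 1038.0 TPM on LN323 and 453.2, 2318.0 and 645.8 TPM on LN523. At day 32 LN323 had mesenchyme sums of 885.6, 6713.0 and 2438.5 TPM beside 25.3, 10.6 and 5.55 TPM of KIF17. LN523 had 449.8, 3996.5 and 732.7 TPM beside 32.1, 25.1 and 10.8 TPM, and LN521 1292.7, 712.2 and 578.7 TPM beside 10.1, 27.4 and 11.3 TPM. At that day the lowest KIF17 met the highest mesenchyme sum on LN521, but not on LN323 or LN523. In 7 of the 9 groups the library with the lowest KIF17 had the highest cycling sum, and in 8 of 9 the library with the highest KIF17 had the lowest cycling sum. The part of cycling cells and of mesenchyme in the KIF17 levels was not tested. The log2 fold change of KIF17 from day 2 to day 22 was -0.41 ± 0.29 with an adjusted p of 0.335, and -0.78 with an adjusted p of 0.000933 without replicate 1 of every group. TULP3, which brings receptors to the cilium with IFT-A, had a log2 fold change of 0.01 ± 0.12.

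The order of the levels can be read from TPM. IFT52 was highest at each day, with medians of 61.2, 125 and 116 TPM at days 2, 22 and 32. IFT57 had 84.9 TPM and IQCB1 74.5 TPM at day 22, and their ranges over the libraries overlapped (71.6 to 104 and 51.4 to 84.6 TPM). IQCB1 and TULP3 were the second and the third at day 2, with medians of 56.2 and 50 TPM and overlapping ranges. At the other end, BBS1 (0.326 TPM), BBS5 (0.333 TPM) and RPGRIP1 (0.833 TPM) were the 3 lowest at day 2. At day 22 BBS5 had moved to rank 27 of 34 with 12.9 TPM, and RPGRIP1 was the lowest with 0.332 TPM.

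**Figure D3:**
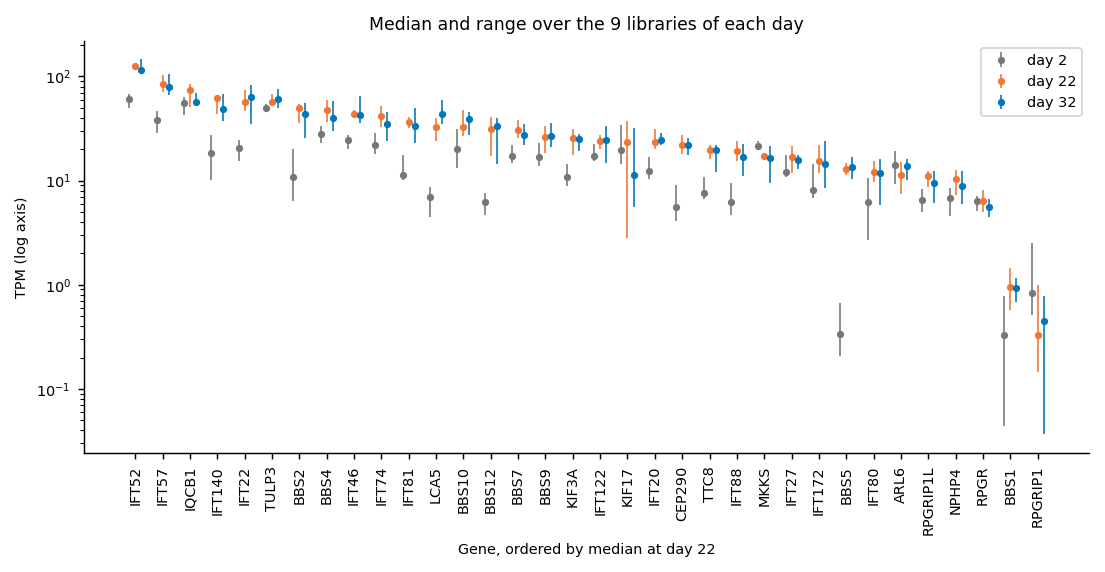
Median TPM of each gene over the 9 libraries of a day, with bars from the lowest to the highest library, on a log axis. IFT52 was at the top at each day, BBS5 rose from a median of 0.333 to 12.9 TPM between day 2 and day 22, and the bar of KIF17 at day 22 spans 2.82 to 37.6 TPM.

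Taken on each matrix alone, the change from day 2 to day 22 passed the test in 17 genes on LN323, 18 on LN521 and 17 on LN523, where 22.7%, 18.9% and 21.7% of all genes passed. In the fit limited to the 25682 genes kept by the expression filter, 11149 passed on LN323, 9296 on LN521 and 10707 on LN523. On all 3 matrices 13 genes passed: IFT22, IFT52, IFT57, IFT81, IFT88, IFT140, BBS2, BBS5, TTC8, BBS12, CEP290, LCA5 and KIF3A. The log2 fold change was above 0 on all 3 matrices in 27 genes, below 0 on all 3 in 5 and of mixed sign in 2, IFT27 and TULP3. BBS5 rose by 4.68 ± 0.37 on LN323, 5.02 ± 0.38 on LN521 and 5.15 ± 0.39 on LN523, and the edgeR test of a difference between the matrices gave an unadjusted p of 0.606 for it. RPGRIP1 fell by 2.19 ± 0.70 on LN323 and by 2.69 ± 0.71 on LN521, and its log2 fold change on LN523 was -0.67 ± 0.68 with an adjusted p of 0.632. The test of whether the change differed between the matrices called 0 of the 34 genes (edgeR, 0 at an unadjusted p under 0.05, and 0 by DESeq2), and 0.0245% of all genes. The smallest unadjusted p was 0.0624. A smaller number, 10, passed on LN323 without replicate 3, and 10 and 11 on LN523 without replicate 1 and replicate 3. Of all genes, 7065 of 43692 passed in the first of these fits, and 7742 of 42758 and 7067 of 43692 in those on LN523.

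The second question was whether the cilium genes went on changing from day 22 to day 32, when 8 of 11 photoreceptor markers and 4 of 5 neuron markers rose, with 3 of 7 keratinocyte and 2 of 5 mesenchyme markers. Of the 34 genes LCA5 alone passed the test as the mean over matrices, and 0 fell, while 1.03% of all genes rose and 0.305% fell. At an unadjusted p under 0.05 the count was also 1. DESeq2 called 1 gene higher and limma on log2 TPM called 0. LCA5 had 46.8, 39.6 and 40.3 TPM on LN323 at day 32, 35.2, 48.7 and 43.5 TPM on LN521, and 59, 56.2 and 37.3 TPM on LN523. The day 32 range of 35.2 to 59 TPM overlapped the day 22 range of 24.1 to 39.9 TPM. The log2 fold change was 0.56 ± 0.14 (SE; adjusted p = 0.0175), and the call was lost without replicate 1 (0.58) and without replicate 2 (0.41) of every group. The median change of the 34 genes was -0.06 and that of all genes 0.01 on the log2 scale, and the largest fall, of RPGRIP1L, was -0.29. Without replicate 2 of every group KIF17 was lower at day 32, with a log2 fold change of -0.86 (adjusted p = 0.000143).

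On each matrix alone, 0 of the 34 genes passed from day 22 to day 32 in edgeR, where 0.0424% of all genes passed on LN323, 0.268% on LN521 and 0.381% on LN523. At an unadjusted p under 0.05 there were 0 genes on LN323, 5 on LN521 and 1 on LN523. These 5 were LCA5, with a log2 fold change of 0.62, and IFT122, IFT140, IFT172 and NPHP4, with -0.46, -0.45, -0.60 and -0.68. Without replicate 2 of every group, 1 gene passed on LN521, KIF17, with a log2 fold change of -1.11 (adjusted p = 0.03). Of all 42723 genes, 571 passed in that fit. The test of a difference between matrices called 0 of the 34 genes and 0% of all genes, with 2 genes, IFT122 and NPHP4, at an unadjusted p under 0.05. Their unadjusted p-values were 0.0145 and 0.035, and the adjusted p was 1 for both.

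The third question was whether the matrix itself changed the cilium genes at a given day. In none of the 9 comparisons did any of the 34 genes pass the test in edgeR, and 0 passed in DESeq2 and in limma. Of all genes at day 2, 0.233% passed for LN523 against LN323, 0.624% for LN523 against LN521, and 2.5% for LN323 against LN521. At day 22 the shares were 0.013%, 0.572% and 0.616% in the same order, and at day 32 they were 0%, 0.0609% and 0.117%. These shares depended on the fit. With the expression filter, 0 of all genes passed in each of the 9 comparisons. For LN523 against LN323 at day 32, 1035 of 36703 genes passed in the 6 libraries alone and 823 in DESeq2. At that day DESeq2 also called 823 genes for LN523 against LN521 and 799 for LN323 against LN521. For LN323 against LN521 at day 2 it called 897, beside 967 in edgeR. The median standard error of the log2 differences was 0.23 at day 2, 0.19 at day 22 and 0.23 at day 32.

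The smallest p among the matrix comparisons was that of IFT122 at day 32, higher on LN523 than on LN521 by 0.72 ± 0.21 on the log2 scale (unadjusted p = 0.00196, adjusted p = 0.273 by edgeR). IFT80 at day 2 was lower on LN323 than on LN521 by a log2 difference of -0.82 ± 0.27 (adjusted p = 0.0843). Of its exons, 27.6% lie in another gene on the same strand. Its call depended on the fit, since without the replicate block the adjusted p was 0.0357, and without LN323 replicate 2 it was 0.00148. Without that library IFT22, IFT57, IFT140 and BBS2 passed too, with log2 differences of 0.78, 0.81, -0.77 and -0.87, as did 3439 of all 38205 genes. Without LN521 replicate 1 at day 22, the library with the highest pluripotent and neuron sums of that day, KIF17 was lower on LN323 and on LN523 than on LN521, with log2 differences of -1.10 and -0.97, where 628 and 421 of all 37797 genes passed. Without LN521 replicate 1 at day 32, IFT122 (0.57) and NPHP4 (0.60) were higher on LN523 than on LN521, and on LN323 IFT172 (0.77) was higher and KIF17 (-1.09) was lower. Of all 38504 genes, 1907 passed for LN523 and 2143 for LN323 in that fit, so the share of the 34 genes was near that of all genes. In the 6 libraries of LN523 and LN323 at day 32 alone, KIF17 was higher on LN523 by 0.89.

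**Figure D4:**
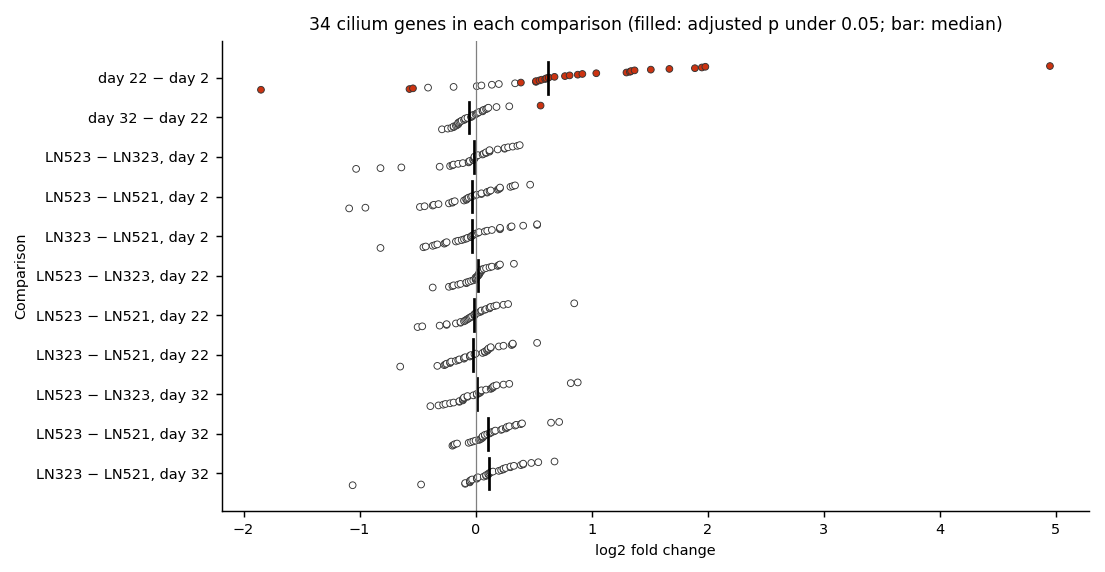
Log2 fold changes of the 34 genes in the 2 comparisons over time and the 9 comparisons between matrices, each point 1 gene, filled where the adjusted p was under 0.05, with the median as a bar. The median was 0.62 from day 2 to day 22, and no gene is filled in the 9 comparisons between matrices.

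Cilium genes often carry an X-box, the motif that RFX transcription factors bind, and the promoters of the set were searched for a core of this motif, GTTGCCA, on either strand. RefSeq promoters (GRCh38.p14, 250 bases before to 50 bases after a start) were given for 32 of the 34 genes, with 39 promoters. The core was in 8 of these 39 promoters (20.5%), from 7 genes, and in 4.08% of all 35116 promoters of the same length. The windows below show the core in capitals with 10 bases on each side, in the direction of the gene, and are printed for the letters around the core, since the search itself fixed the core. BBS5 did not hold the core, and its window shows the first 6 letters of it, GTTGCC, a shorter motif chosen after its sequence was seen and found in 12.2% of all promoters and 15 of the 39.
ARL6, chr3:97764724-97764750, plus strand: agaagctcctGTTGCCAagggaacggt
ARL6, second start, chr3:97764357-97764383, plus strand: tcttgcagtcGTTGCCAcaacgctacg
IFT122, chr3:129440202-129440228, plus strand: gcgcatgtacGTTGCCAggggtaacgc
BBS1, chr11:66510626-66510652, plus strand: ggcggggccgGTTGCCAggacgacgcc
IFT46, chr11:118566111-118566137, minus strand: tatcagccgcGTTGCCAcccatagccg
TULP3, chr12:2890841-2890867, plus strand: gtggaacgcgGTTGCCAggaggcggga
IFT81, chr12:110124347-110124373, plus strand: cctagcaaccGTTGCCAaggagctcga
IFT88, chr13:20567162-20567188, plus strand, reverse complement of the core: attccgcgctTGGCAACggctcggcgt
BBS5, chr2:169479470-169479495, plus strand: gaggcggcccGTTGCCttggagccag

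The 7 genes with the core did not share one direction from day 2 to day 22. BBS1, IFT81, IFT88 and IFT46 rose by 1.30, 1.37, 1.33 and 0.63 on the log2 scale, ARL6 fell by 0.57, and IFT122 and TULP3 had 0.20 and 0.01. Counted from the start of the transcript, the core begins at base -12 in IFT122, -40 in TULP3, -24 and -154 in ARL6 and -196 in IFT46, and within the transcript at base 1 in IFT81, 2 in BBS1 and 16 in IFT88. A match in these windows is a description and not evidence of binding. Of the RFX family, RFX3 rose by 1.31 ± 0.18 and RFX2 by 1.30, and RFX1 fell by 1.30 on the log2 scale from day 2 to day 22. RFX4, with medians under 1 TPM, rose by 2.27, and RFX5 (-0.02) and RFX7 (-0.28) did not pass.

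The other genes of the pathway were taken from 6 further lists of cilium genes, of which 53 of 54 genes were measured. From day 2 to day 22, 32 of them rose, 7 fell and 14 did not pass, with a median log2 fold change of 0.57. Over all genes 18.2% rose and 16.9% fell. From day 22 to day 32, 0 of the 53 passed in either direction, where only 1.03% of all genes rose and 0.305% fell. Transition zone genes were the most one-sided, with 12 of 16 higher and 0 lower, led by TCTN1 (2.31), TMEM231 (2.19) and SPATA7 (1.94). Of 9 further IFT genes 5 rose and 3 fell, among them IFT38, also called CLUAP1 (1.58), and WDR19 (1.25), which rose, and the IFT-A gene WDR35, which fell by 1.08. Among the further BBSome genes LZTFL1, which regulates its entry, rose by 1.64 and CCDC28B by 0.97, and WDPCP fell by 1.03. The kinesin adaptor KIFAP3 rose by 2.51 and the dynein light intermediate chain gene DYNC2LI1 by 1.58, with DYNC2H1, the retrograde dynein heavy chain, at 0.64, and 4 of 7 motor genes did not pass. In the list of GTPases and lipid cargo carriers RP2, the GTPase-activating protein of ARL3, rose by 0.62, and PDE6D fell by 0.89. Of the 8 basal body genes 4 rose and 1 fell, with SDCCAG8 at 1.24, TTBK2 at 0.79 and CEP89 at 0.48.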

How the data were processed

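RNA-seq counts and TPM of 27 libraries were used, 3 for each of 3 matrices at 3 days. The authors depleted total RNA of ribosomal RNA, made stranded libraries, sequenced 150 bp read pairs, trimmed with cutadapt, aligned to hg38 with STAR 2.5.2b, counted Ensembl 79 genes with featureCounts 1.5.1, removed ribosomal RNA and mitochondrial genes, and deposited rounded raw counts. TPM deposited beside them sum to 1000000 in each library. Of the nonzero counts 68.8% were even, a sign that each read pair may count double, and counting error may then exceed what the counts give.

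Counts were scaled by TMM and tested in edgeR 4.0.16 (R 4.3.3) with quasi-likelihood F-tests, the replicate block as a term, genes summing to over 1 count, and Benjamini-Hochberg adjustment over all genes. Time was tested in 1 fit over 27 libraries, matrices in 1 fit per day over 9 libraries. The replicate number is the sequencing lane, which the study's model held as a covariate. Same-lane libraries of 2 groups had a mean correlation of deviations from the group means of 0.0481 over 13476 genes. In 2 of 36 pairs of groups every lane was over 0.1: LN323 with LN523 at day 22 (mean 0.612) and at day 32 (mean 0.708). Means within a day ran from -0.418 to 0.708. TMM factors were 0.857–1.17 at day 2 and 0.99–1.08 later, and TPM are not scaled by them. Approximate 95% intervals are from the standard error. Alternatives used DESeq2 1.42.0 and limma 3.58.1, and the fits were tested on simulated data. Genes in full were the 8 called members with the largest change in each comparison over time and the same sign on all matrices, with RPGRIP1 and RPGR; of other cilium lists, the 3 largest called changes, of which 1 is not reported here. Coordinates and overlaps are from GENCODE 44 (GRCh38), which matched 43052 of 44852 genes. The members and lists were chosen with earlier results of these data known.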

Additional observations from a re-analysis of the deposited data

How the results depend on the processing

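Of 308 values of log2 fold change recomputed for the 28 calls over time under 11 alternatives each, 292 passed the test with the same direction, 16 kept the direction and lost the call, and 0 changed sign. The calls lost belonged to BBS1, BBS7, BBS10, NPHP4, ARL6 and MKKS from day 2 to day 22 and to LCA5 from day 22 to day 32. On log2(TPM + 0.1) in limma, 1 gene rather than 3 fell from day 2 to day 22, and from day 22 to day 32 limma on either pseudocount called 0 genes higher. In limma the median change of the 34 genes was 0.79 and 0.84 with pseudocounts of 1 and 0.1, beside 0.62 in edgeR, and the cause was not tested. From day 2 to day 22 limma called IFT122, BBS9, IQCB1 and TULP3 higher with both pseudocounts and IFT27 with 1, which edgeR did not. The pairing of replicates by lane changed 1 count: without the replicate block, 1 gene (IFT80) rather than 0 differed for LN323 against LN521 at day 2, while 24 genes rose and 3 fell from day 2 to day 22 as with it. With the 6 libraries alone, 1 gene (KIF17) rather than 0 differed for LN523 against LN323 at day 32.

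Leaving out replicate 1, 2 or 3 of every group gave 0 to 1 genes higher and 0 to 1 lower from day 22 to day 32, and 10 to 15 genes changed on LN323, 10 to 16 on LN523 from day 2 to day 22 and 0 to 1 on LN521 from day 22 to day 32. Of the 42723 to 43692 genes in these fits, 352 to 878 were higher and 129 to 534 lower from day 22 to day 32. From day 2 to day 22, 7065 to 9810 passed on LN323 and 7067 to 8734 on LN523. On LN521 67 to 571 passed from day 22 to day 32. Leaving out 1 library at a time gave 0 to 5 genes for LN323 against LN521 at day 2, 0 to 1 for LN523 and for LN323 against LN521 at day 22, and 0 to 2 for the same at day 32. Of all genes, 124 to 3439 passed in the comparison at day 2, 13 to 628 in those at day 22 and 0 to 2143 in those at day 32. The median standard error of 0.19 to 0.23 limits the matrix comparisons, and low counts limit BBS1, RPGRIP1 and BBS5 at day 2. The alternatives that leave out LN521 replicate 1 or the 3 libraries apart on the second component were chosen after seeing the data.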

Other observations

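Genes of motile cilia, which beat and are built by multiciliated cells, were followed beside the transport genes from day 2 to day 22. Of 13 measured genes 11 rose and 1, DNAH11, fell, with a median log2 fold change of 2.12. Over all genes 18.2% rose and 16.9% fell. TEKT1, a tektin of the axoneme, went from 0–0.0695 TPM at day 2 to 0.158–13.2 TPM at day 22 and rose by 6.89 ± 0.46, followed by SPAG6 (3.43), CFAP43 (3.16) and the dynein gene DNAH9 (3.16). The summed level of the list was low, 9.16–21.6 TPM at day 2 and 22–52.3 TPM at day 22. From day 22 to day 32, 0 of the 13 passed in edgeR, where only 1.03% of all genes rose and 0.305% fell. FOXJ1, a regulator of motile cilium genes, rose by 1.14, from 3.67–21.3 to 17.8–32.1 TPM. Of the 11 ciliogenesis factors 5 rose and 3 fell from day 2 to day 22, beside 18.2% and 16.9% of all genes. Among those that rose, MCIDAS (2.97) and RFX4 (2.27) had medians under 1 TPM at each day, and MYB fell by 2.67.

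Genes of the photoreceptor outer segment and its axoneme were mixed in direction. Of 9 genes 2 rose and 3 fell from day 2 to day 22, beside 18.2% and 16.9% of all genes. PRPH2, a structural protein of the disc rim, fell by 4.84 from 0.957–3.12 TPM to 0–0.323 TPM, and CDHR1 fell by 3.44. RP1, a microtubule protein of the axoneme, was at 0 in all day 2 libraries and at most 0.247 TPM at day 22. From day 22 to day 32 CDHR1 rose by 2.28 and PROM1 fell by 0.55.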
